A study of Rattus norvegicus with 9 samples.

Results

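The rat genome gives the symbol Zfp and a number to a large group of zinc finger genes, and 227 of the 248 such genes in the deposited table were described here, out of 18964 genes in all. They were selected on read counts, as the Zfp-numbered genes whose estimated counts summed to at least 90 over the 9 libraries. The sum takes no account of group labels, but it includes the libraries compared below, and all 227 genes had to be detected. A weakly counted gene can therefore pass through the group where it is high. Just inside the limit stood Zfp951, Zfp296 and Zfp819 with sums of 111, 130 and 131 counts, and just outside it Zfp30, Zfp939 and Zfp108 with 82.8, 70.6 and 69.9 counts. All 227 also passed the filter on low counts that left 14643 genes for testing.

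The libraries came from gastric lymphatic vessels, the vessels that drain lymph from the stomach wall, of wild type male Sprague-Dawley rats weighing 180 to 220 g, with 3 libraries in each of 3 groups. BXD rats were fasted for 12 h, kept for 4 h in water 15 cm deep at 22 °C, a stress that produces gastric ulcers, and 30 min later were given Banxia Xiexin decoction, a Chinese herbal medicine, by gavage at 10 ml per kg. Model rats were fasted and stressed in the same way and received a gavage without the drug, which the labels call saline and the protocol distilled water. Control rats were fasted, were not stressed and received distilled water. The protocol counts 6 rats in a group and the labels do not tie libraries to rats, so a p-value here speaks only of library-to-library spread, which may be technical. Lymphatic endothelial markers were present in every library, with a summed level of 548 to 743 TPM (a level per length) in BXD, 334 to 696 TPM in model and 516 to 601 TPM in control. Markers of some other cell types summed higher over the 9 libraries. Blood endothelium had 939 to 1843 TPM, fibroblasts 7009 to 18395 TPM and adipocytes 16700 to 47128 TPM, while neutrophil markers, at 141 to 365 TPM, summed lower in each group. Sums of unlike lists do not give shares of cells.

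Most Zfp genes encode proteins of the C2H2 class, in which fingers folded around a zinc ion read a stretch of DNA. Many also carry a KRAB domain, which recruits the corepressor Trim28 and, through it, the histone methyltransferase Setdb1 and heterochromatin proteins, and takes part in silencing transposons and keeping imprints in mouse and human cells. These genes lie in clusters that arose by tandem duplication, so near-identical neighbours can share reads, and single values of clustered members are uncertain to that extent. The label of transcription factors holds for most members only. In the authors' annotation 168 of the 227 were listed as C2H2 transcription factors and 59 were not. By the domains deposited with each gene, 69 members had KRAB and C2H2 domains, 136 had C2H2 domains without KRAB, and 22 had no C2H2 domain listed. Zfp36, a CCCH protein that binds RNA, belongs to the last of these classes.

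Relative to all transcripts, the summed level of the Zfp members was lowest in the stressed, untreated vessels. It was 2399, 2469 and 2339 TPM in BXD replicates 1 to 3, 2105, 1857 and 2079 TPM in model, and 2812, 2869 and 2820.1 TPM in control. The 3 groups did not overlap, but the place of BXD replicate 1 rested on Zfp36, the most abundant member. Without it, in a sum added after the values were seen, the other 226 members came to 1936, 2257 and 2200.4 TPM in BXD, 1892, 1732 and 1944 TPM in model, and 2584, 2709.7 and 2642 TPM in control. BXD replicate 1 then lay among the model libraries, and the control libraries stayed above all others. As a share of all counts the members took 0.487, 0.544 and 0.535% in BXD, 0.482, 0.449 and 0.504% in model, and 0.576, 0.597 and 0.592% in control, and on this scale BXD replicate 1 lay within the range of the model libraries. Both measures are relative to all other transcripts in a library. With library size alone as the scale, the median log2 fold change of all genes was -0.28 in model against control. In BXD against control it was -0.23. The fall of the sums was therefore shared in part by the typical gene, and the size of that part was not tested. In whole vessels, fewer cells of a type and less RNA per cell cannot be told apart.

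**Figure D1:**
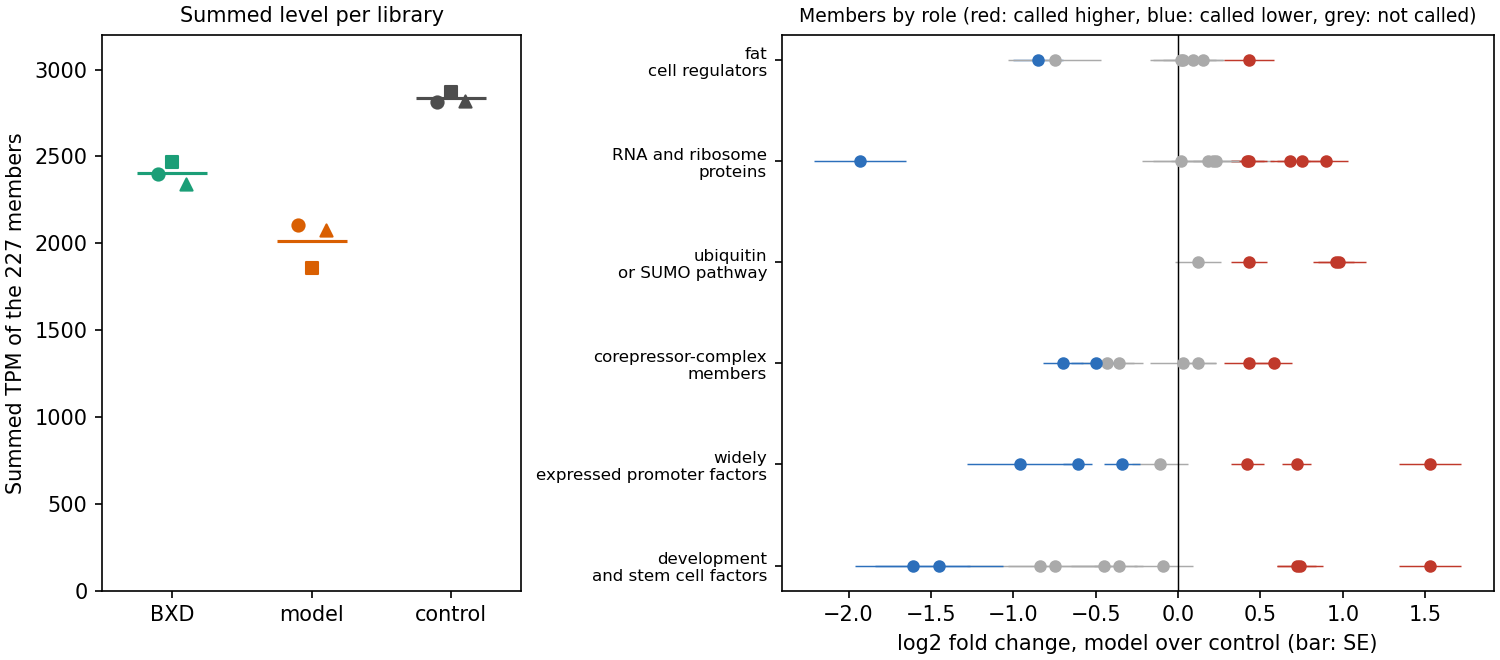
Left, the summed TPM of the 227 members in each library (points; bars are means of 3 libraries), with model lowest at 1857 to 2105 TPM. Right, the log2 fold change of model over control with its SE for the members of 6 role lists, where the RNA and ribosome list has 5 members called higher and Zfp346 alone called lower at -1.93.

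The effect of the water stress was read from model against control. Of the 227 members, 37 were called higher and 75 lower in model, and 115 were not called, where called means an adjusted p under 0.05 in edgeR's quasi-likelihood test with Benjamini-Hochberg adjustment over all 14643 genes. The share called was 49.3%, against 42.2% of all genes tested. More members were lower than higher, at 16.3% higher and 33% lower, against 21.6% and 20.6% of all genes. The median log2 fold change was -0.30 over members and -0.01 over all genes, and the members ran from -2.85 to 1.85. The lean depended in size on how composition was scaled. Scaling by library size alone moved the median of all genes to -0.28 and that of the members to -0.57, with 21 members called higher and 97 lower, against 11.1% and 33.5% of all genes. Upper quartile scaling moved them to -0.14 and -0.43, with 29 and 91 members, against 16.2% and 26.7% of all genes. The share of higher calls among called members was 33%, and 17.8% and 24.2% under these scalings, against 51.2%, 24.8% and 37.7% of the calls over all genes.

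The lean also differed with how strongly a gene was counted, taken as a mean over all 9 libraries. That mean holds the model and control values that form the fold change, as does the 900-count sum below. A gene that falls in model is thereby moved towards a lower band, so the relation is partly built in. Counts scaled to library size and composition (CPM) were used here as a measure of counting depth, not of level per length. Of the 84 members with a mean of 20 CPM or more, 29.8% were called higher and 22.6% lower, against 32.4% and 16.2% of all genes counted that strongly, with median log2 fold changes of 0.12 and 0.15. Of the 97 members between 5 and 20 CPM, 11.3% were higher and 38.1% lower, against 11.5% and 27.9% of all genes, with medians of -0.48 and -0.21. Of the 46 members under 5 CPM, 2.17% were higher and 41.3% lower, against 6.95% and 22.5%, with medians of -0.87 and -0.42. In each band the members had a larger share of lower calls than all genes, and the share of higher calls was close to that of all genes from 5 CPM upwards. Across the 227 members the Spearman correlation of mean log2 CPM with log2 fold change was 0.40, a description only, since all members share the same libraries. With the 900-count minimum in place of 90, the median of the members was -0.09.

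**Figure D2:**
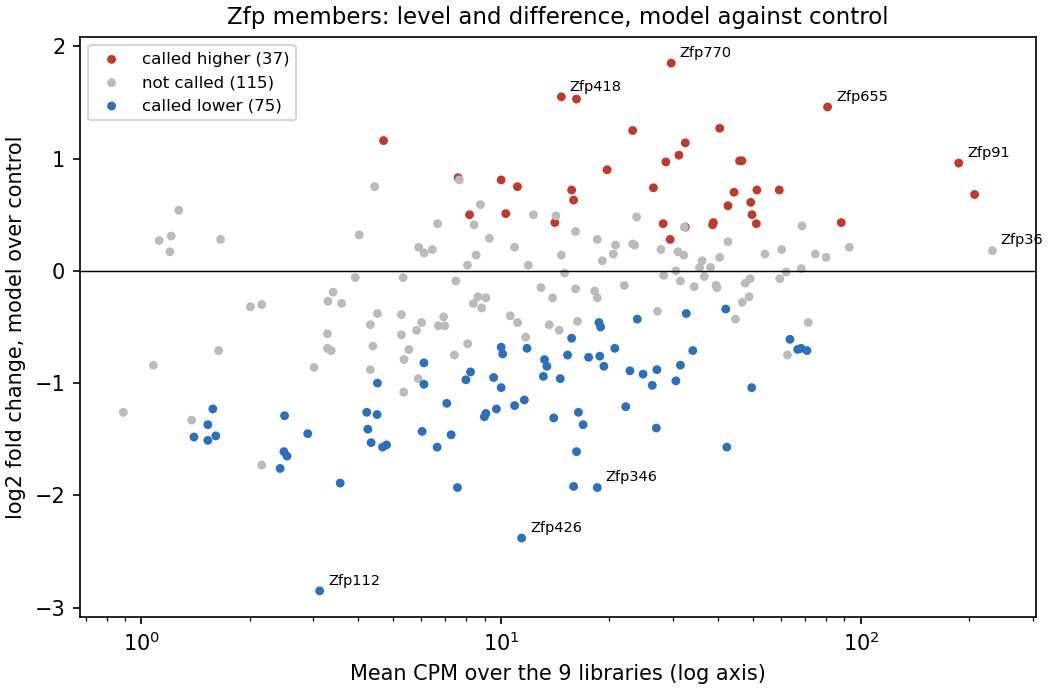
Each point is a member, with its mean CPM over the 9 libraries on a log axis and its log2 fold change of model over control. Red points were called higher (37), blue lower (75) and grey not called (115), and most blue points lie below 20 CPM.

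**Figure D3:**
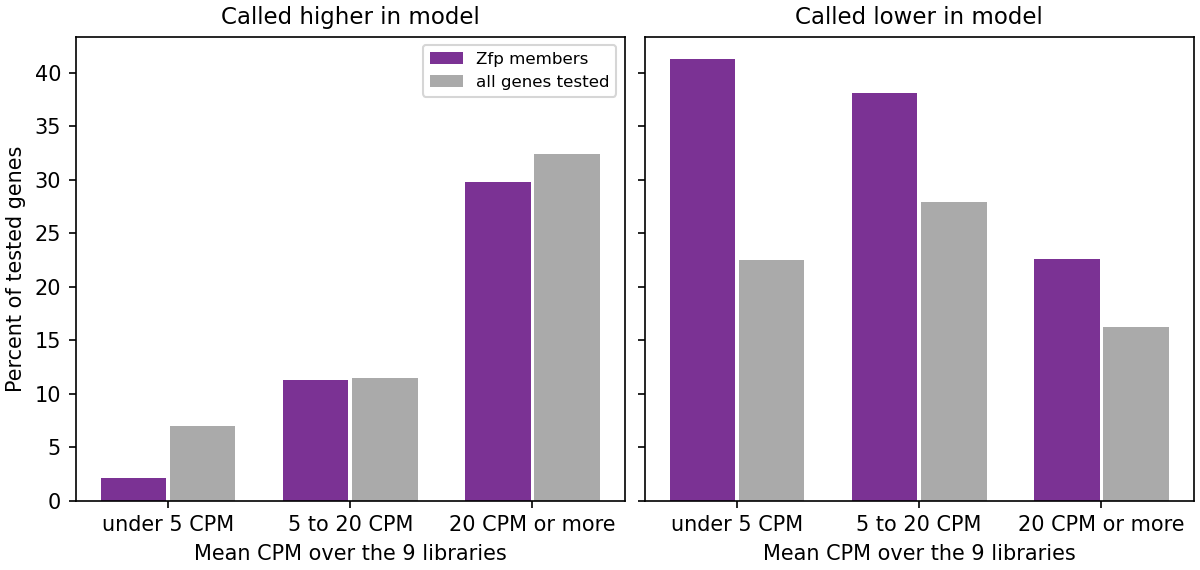
Percent of genes called higher (left) and lower (right) in model against control, for members (purple) and all genes tested (grey) in 3 bands of mean CPM. Under 5 CPM, 41.3% of members were called lower, against 22.5% of all genes.

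Members of every domain class were called in both directions, and their counts stand beside 21.6% higher and 20.6% lower of all genes. Of the 69 members with KRAB and C2H2 domains, 12 were higher (17.4%) and 29 lower (42%), with a median log2 fold change of -0.53. Of the 136 with C2H2 domains alone, 22 were higher (16.2%) and 43 lower (31.6%), with a median of -0.21. The 17 members that also carry a SCAN domain, which pairs such proteins with one another, had 5 higher and 6 lower calls and a median of -0.13. The 22 members with no listed C2H2 domain had 3 higher and 3 lower calls (13.6% each) and a median of -0.39, with negative values in 16. Differences between these classes were not tested.

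Other markers moved between the same groups. The 20 adipocyte markers summed to 29241 to 47128 TPM in model and 16700 to 20164 TPM in control, with 16 called higher and 0 lower. The 15 contractile smooth muscle markers summed to 2385 to 4782 TPM in model and 7370 to 10657 TPM in control, with 9 called lower. The 10 markers of proliferating cells summed to 43.8 to 59.6 TPM in model and 141 to 159 TPM in control, with 9 called lower. The 8 fibroblast markers summed to 7009 to 10640 TPM in model and 14400 to 18395 TPM in control, with 2 called lower. Of 8 neutrophil markers tested 4 were higher and 0 lower, and of 11 nerve and glia markers 1 was higher and 5 lower. Lymphatic endothelium had 1 higher and 2 lower of 10, blood endothelium 1 and 3 of 10, and lymphocytes 1 and 0 of 13. These counts stand beside 21.6% higher and 20.6% lower of all genes. No marker of any of these lists was at 0 in all libraries, and the part of these cell types in the Zfp differences was not tested.

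The largest rise was that of Zfp770, a C2H2 gene without KRAB (gene 691610, chromosome 3, 105658970 to 105667227 in Rnor_6.0). It stood at 38.7, 62.5 and 37 CPM in model replicates 1 to 3 and at 13.8, 12.3 and 12.1 CPM in control. Every model library lay above every control library, and model replicate 2 was the highest. The largest rises and falls described here and below were picked by this comparison, so the gap between their groups follows largely from the choice. Model was 3.61-fold higher, or 1.85 on the log2 scale (SE 0.22, adjusted p = 0.000641 in edgeR). Zfp281, a factor that binds GC-rich promoters and takes part in the exit from pluripotency in mouse (gene 305083, chromosome 13, 53531080 to 53534399), stood at 23.2, 18.7 and 21.9 CPM in model and 7.53, 7.73 and 6.87 CPM in control, 2.89-fold apart (adjusted p = 0.00074). Its 3 model libraries sat close together and far above the 3 control libraries.

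Zfp655 had the highest counts among the largest rises (gene 360764, chromosome 12, 11122779 to 11152909). It stood at 99.2, 120 and 92.4 CPM in model and 37.9, 36.8 and 38 CPM in control, 2.76-fold apart (adjusted p = 0.000214). Zfp777, a KRAB gene (gene 502764, chromosome 4, 77684488 to 77710998), stood at 55.5, 49.4 and 53.7 CPM in model and 21.9, 21.4 and 22.7 CPM in control, 2.41-fold apart (adjusted p = 0.000226). For both genes the spread within a group was small beside the distance between groups, which picking the largest called rises favours. The other 8 of the 12 largest rises were Zfp418, Zfp189, Zfp978, Zfp26, Zfp800, Zfp868, Zfp746 and Zfp654, with log2 fold changes of 1.55 down to 0.97. The neighbouring genes Zfp418 (69615413 to 69629997) and Zfp978 (69736905 to 69743906) of chromosome 1 had their highest value in model replicate 2, at 34.1 and 11.7 CPM, against 17.4 to 19.4 and 5.26 to 6.15 CPM in the other 2 model libraries. The call of Zfp978 was lost without control replicate 2 or 3, where its log2 fold change was 1.08 and 1.10.

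The largest fall was that of Zfp112, a KRAB gene (gene 308420, chromosome 1, 80944118 to 80959072). It stood at 0.876, 0.717 and 1.06 CPM in model and 5.47, 6.49 and 7.5 CPM in control, 7.23-fold lower in model (log2 fold change -2.85, SE 0.49, adjusted p = 0.00251). All 3 model libraries were near 1 CPM, and no control library was below 5. Zfp426, also a KRAB gene (gene 690895, chromosome 8, 21477328 to 21511228), stood at 5.69, 2.33 and 4.56 CPM in model and 20.8, 21.6 and 23.4 CPM in control, 5.21-fold lower in model (adjusted p = 0.00136). Zfp758, a KRAB gene on chromosome 11, stood at 7.18, 6.81 and 9.04 CPM in model and 29.2, 28.1 and 30.2 CPM in control, 3.79-fold lower (adjusted p = 0.000439).

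Among the other falls, Zfp346 encodes a protein that binds double-stranded RNA (gene 306765, chromosome 17, 10021596 to 10096745). It stood at 8.93, 8.42 and 8.51 CPM in model and 33.8, 30.3 and 34.8 CPM in control, 3.82-fold lower (adjusted p = 0.00135). Zfp57, the KRAB factor that keeps methylation at imprinted genes in mouse and human, stood at 1.93, 1.08 and 1.29 CPM in model and 3.05, 4.87 and 5.26 CPM in control, 3.06-fold lower (adjusted p = 0.0065). Groups did not overlap for either gene, which their choice by this comparison favours, and Zfp57 rested on 307 counts in all. The rest of the 12 largest falls were Zfp133, Zfp382, Zfp300, Zfp184, Zfp862, Zfp28 and Zfp316, from -1.93 to -1.57 on the log2 scale. The call of Zfp184 was lost without model replicate 2, where its log2 fold change was -1.46.

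**Figure D4:**
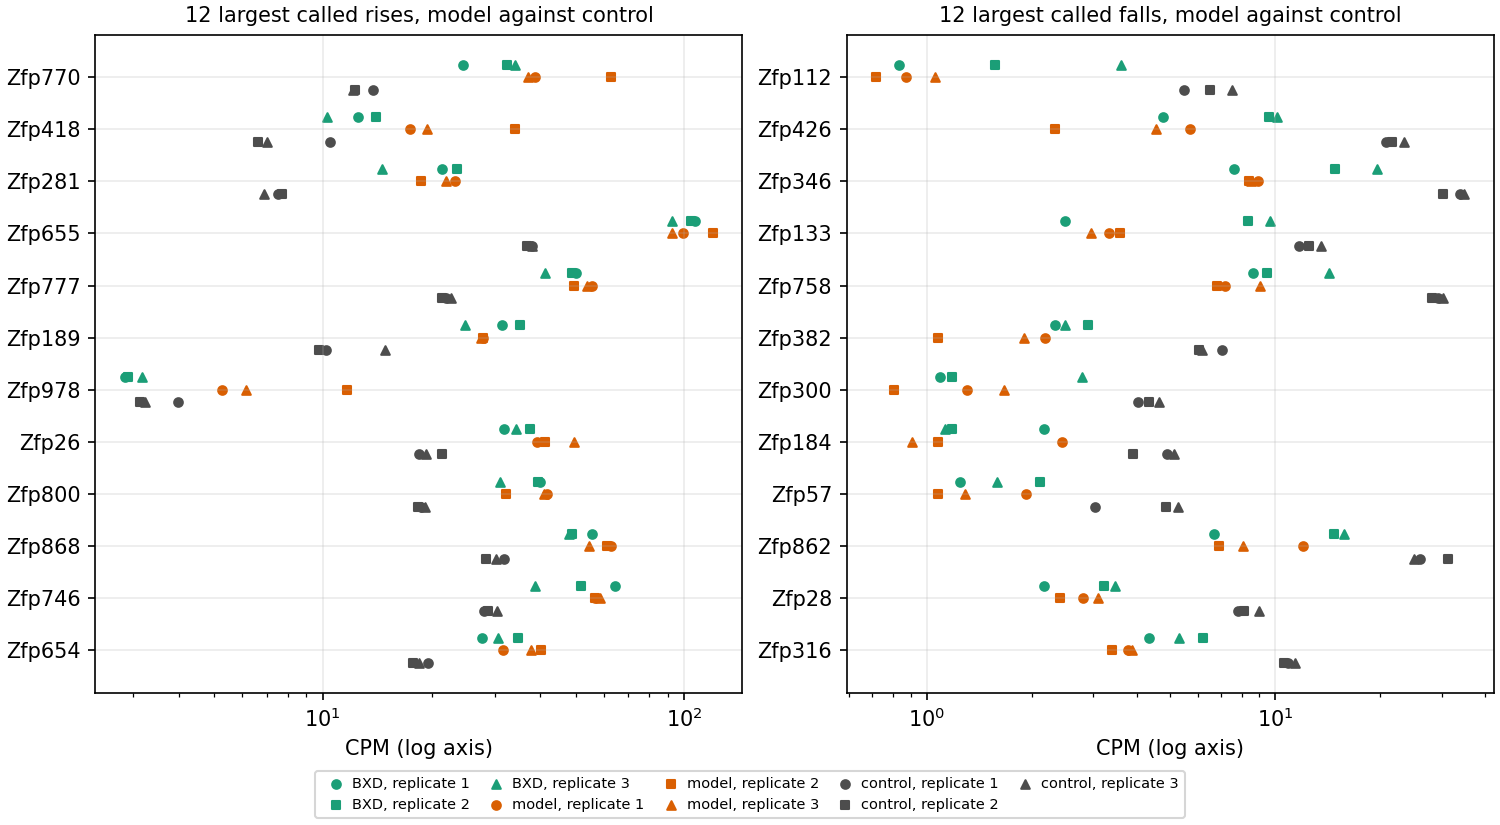
CPM in each library (log axis) of the 12 members with the largest called rises (left) and falls (right) in model (orange) against control (grey), with BXD in green and a marker shape for each replicate. The 24 members were picked by this comparison, so the gap between their model and control libraries follows largely from the choice. For Zfp655 and Zfp281 the BXD libraries overlap with the model libraries.

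Promoters of members from both ends of this order are shown for the motifs their windows hold. RefSeq gives a start for 192 of the 227 members on GRCr8, a later build than the one of the counts, and the window of 250 bases before to 50 after the first listed start was read for each. Capitals mark a GC box (GGGCGG) or the sequence type bound by human ZNF143, the counterpart of Zfp143 (ACTACA, any base, then TTCC), on either strand.
Zfp770, chr3:121425907-121426206, minus strand: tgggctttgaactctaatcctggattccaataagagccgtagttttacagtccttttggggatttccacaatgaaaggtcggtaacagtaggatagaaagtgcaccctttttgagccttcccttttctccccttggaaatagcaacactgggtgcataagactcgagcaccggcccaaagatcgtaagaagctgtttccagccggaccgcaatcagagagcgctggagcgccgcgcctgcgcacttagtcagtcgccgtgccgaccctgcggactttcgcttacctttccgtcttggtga
Zfp281, chr13:50647572-50647871, plus strand: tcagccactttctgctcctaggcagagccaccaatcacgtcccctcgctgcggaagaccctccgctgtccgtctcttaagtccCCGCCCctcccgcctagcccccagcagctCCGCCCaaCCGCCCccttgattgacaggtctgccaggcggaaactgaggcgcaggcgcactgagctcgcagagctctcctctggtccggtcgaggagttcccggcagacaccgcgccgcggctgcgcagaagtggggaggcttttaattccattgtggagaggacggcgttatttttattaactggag
Zfp346, chr17:9528734-9529033, minus strand: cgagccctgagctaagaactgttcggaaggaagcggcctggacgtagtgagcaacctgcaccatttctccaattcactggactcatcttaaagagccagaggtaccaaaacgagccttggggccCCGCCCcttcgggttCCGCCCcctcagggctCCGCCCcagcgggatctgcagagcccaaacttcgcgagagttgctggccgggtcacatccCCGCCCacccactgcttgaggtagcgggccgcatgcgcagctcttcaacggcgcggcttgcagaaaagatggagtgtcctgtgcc
Zfp112, chr1:88804583-88804882, plus strand: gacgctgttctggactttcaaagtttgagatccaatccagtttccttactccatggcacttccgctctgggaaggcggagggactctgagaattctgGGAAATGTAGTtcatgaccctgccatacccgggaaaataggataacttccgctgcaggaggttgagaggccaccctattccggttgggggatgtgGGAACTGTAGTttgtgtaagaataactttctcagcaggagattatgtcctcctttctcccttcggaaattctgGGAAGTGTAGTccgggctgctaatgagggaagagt
The Zfp281 window holds 3 GC boxes and that of Zfp346 4, the Zfp112 window holds 3 ZNF143-type sequences and no GC box, and the Zfp770 window holds neither. The windows of Zfp418, the second largest rise, and Zfp426, the second largest fall, were read too and are not printed. That of Zfp418 holds 1 GC box and no ZNF143-type sequence, and that of Zfp426 holds neither. A match is a description of the letters and not of binding.

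The ZNF143-type sequence was looked for in all members after these windows had been read, so its shares are given without a test. It was found in 13 of 192 member promoters (6.77%), against 0.954% of 27457 promoters of all RefSeq genes, detected here or not. Of the 66 members called lower that had a promoter, 9 held it (13.6%), of the 30 called higher 1 did (3.33%), and of the 58 KRAB members 8 did (13.8%). The 11 matches in the 9 members called lower are printed with 8 bases on each side, in the orientation that begins with ACTACA, with the motif in capitals.
Zfp112, chr1:88804840-88804866, minus strand: cagcccggACTACACTTCCcagaattt
Zfp112, chr1:88804767-88804793, minus strand: ttacacaaACTACAGTTCCcacatccc
Zfp112, chr1:88804672-88804698, minus strand: ggtcatgaACTACATTTCCcagaattc
Zfp28, chr1:76539888-76539914, minus strand: ccttggggACTACACTTCCcagcgggc
Zfp2, chr10:35729822-35729848, plus strand: cacgcgggACTACATTTCCcacaaggc
Zfp879, chr10:35659731-35659757, plus strand: cattgtggACTACATTTCCcagaaggc
Zfp94, chr1:89007615-89007641, plus strand: gaatttgaACTACACTTCCcagaatgc
Zfp566, chr1:94460780-94460806, minus strand: tgcctcggACTACATTTCCcagaatgc
Zfp458, chr2:86401408-86401434, minus strand: tagttgggACTACAATTCCcacaagtc
Zfp14, chr1:94413210-94413236, minus strand: caccatggACTACATTTCCcacatgcc
Zfp692, chr10:42988891-42988917, plus strand: cagagctaACTACAATTCCcggtaggc
In these 9 members the motif centre lay between positions -156 and 20 relative to the start, and Zfp112 was the only one with more than 1 match. The other members with a match were Zfp84, called higher at 0.41, and Zfp1, Zfp180 and Zfp317, which were not called at -0.24, -0.15 and 0.17.

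GC boxes were found in 46.4% of member promoters, against 34.9% of all promoters, in 17 of the 30 members called higher (56.7%) and in 23 of the 66 called lower (34.8%). The core CCGGAAG, read by ETS factors, was found in 20.8% of members against 9.22% of all promoters, in 5 of the members called higher and 18 of those called lower. A TATAAA was found in 8.85% of members against 14.3% of all promoters. The median number of CpG in the window was 18 in members against 7 in all promoters, with 22.5 in members called higher and 14.5 in members called lower. The motifs were searched on both strands and can overlap with one another. All promoters means those of every RefSeq gene, detected in these libraries or not, whereas each member had to be detected. Contrasts of members with all promoters therefore mix detection with membership.

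Chromosome 1 holds 59 of the members, of which 4 were called higher (6.78%) and 23 lower (39%), against 16.3% and 33% of all members and 21.6% and 20.6% of all genes, with a median log2 fold change of -0.49. These shares were not particular to it, since chromosome 8 had 1 higher (6.67%) and 6 lower (40%) of 15, with a median of -0.18. Chromosome 12 leaned the other way, with 4 higher (30.8%) and 2 lower (15.4%) of 13, and so did chromosome 5, with 3 (30%) and 1 (10%) of 10. Runs of members whose starts lie at most 250000 bases apart were counted where they held 4 or more, which gave 9 runs with 50 members. The 5 runs on chromosome 1 differed, with 0 to 5 lower calls and none higher. In the run from 88231016 to 88603219 of chromosome 1, Zfp14, Zfp566, Zfp260, Zfp420 and Zfp382 were called lower, Zfp74 was not called at -0.96, and the median was -1.21. In the run from 80920745 to 81382084, which holds Zfp180, Zfp112, Zfp111, Zfp61, Zfp94 and Zfp428, 4 of 6 were lower, with a median of -1.29. In the run of Zfp28, Zfp78, Zfp583, Zfp667, Zfp444 and Zfp787 (71167198 to 71447195) 4 of 6 were lower (median -0.80), and in that of Zfp446, Zfp324, Zfp128, Zfp110 and Zfp329 (65595518 to 65800492) 2 of 5 were (-0.49). In the run of Zfp580, Zfp865, Zfp524, Zfp579 and Zfp628 (72338468 to 72474442) none of the 5 was called (-0.23). The run of Zfp799, Zfp870, Zfp472, Zfp952, Zfp763 and Zfp563 on chromosome 7 (15066960 to 15463024) had 2 higher and 0 lower calls and a median of 0.40. The run of 7 members on chromosome 4 (77489580 to 77747511), 6 of them with KRAB, mixed directions, with Zfp777 and Zfp746 higher and Zfp282 lower. On chromosome 8 the run of Zfp560, Zfp26, Zfp426, Zfp266 and Zfp846 (21379447 to 21618389) had 1 higher and 3 lower calls of 5 (median -0.97). On chromosome 16 that of Zfp866, Zfp869, Zfp964 and Zfp868 (21402706 to 21525290) had 1 higher and 0 lower of 4 (0.07).

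Members were then taken by the roles their proteins are known for, in short lists whose counts stand beside 21.6% higher and 20.6% lower of all genes. Of 10 RNA and ribosome proteins that carry a Zfp name, 5 were called higher and 1 lower. Zfp622 and Zfp593, assembly factors of the large ribosomal subunit, stood at 22.8, 21.6 and 25.8 CPM and at 12.9, 11.5 and 10.9 CPM in model, against 11.5, 12.5 and 13.7 CPM and 7.38, 6.23 and 7.29 CPM in control (log2 fold changes 0.90 and 0.75, adjusted p = 0.00116 and 0.00425). Neither gene had overlapping groups. Zfp106, an RNA-binding protein and by counts one of the most strongly read members, stood at 217, 258 and 234 CPM in model and 133, 149 and 159 CPM in control (0.68, adjusted p = 0.00282). Zfp598, the ubiquitin ligase that marks collided ribosomes, was higher by 0.43 and Zfp326, which links transcript elongation to splicing, by 0.42. The call of Zfp598 was lost without control replicate 2 (0.37) under scaling by library size alone (0.15) and on FPKM (0.16 and 0.15), and Zfp326 lost its call with library size alone (0.15) and turned to -0.14 in the fit to FPKM. Zfp346 was the member that fell.

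In the ubiquitin and SUMO list 3 of 4 members were higher and 0 lower. Zfp91, a ubiquitin ligase of noncanonical NF-kappaB signalling, stood at 224, 268 and 231 CPM in model and 131, 128 and 115 CPM in control (log2 fold change 0.96, adjusted p = 0.000589). Zfp746, known as PARIS, a repressor of Ppargc1a that the ligase parkin removes in mouse and human neurons, stood at 56.6, 56.6 and 58.6 CPM in model and 28, 28.7 and 30.4 CPM in control (0.98, adjusted p = 0.00226). Ppargc1a itself was higher by 3.39 in the same libraries. The groups did not overlap for any of the 3 genes. Zfp451, a SUMO ligase, was not called at 0.12.

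Among 7 regulators of fat cells 1 was higher and 1 lower. Zfp516, a partner of Prdm16 in mouse brown fat, stood at 39.2, 50.4 and 41.7 CPM in model and 34.9, 32.1 and 30.5 CPM in control (log2 fold change 0.43, adjusted p = 0.0414). That call was lost without any single control library (0.37 to 0.47), without model replicate 2 (0.32) or 3 (0.47), with library size alone (0.15), with upper quartile scaling (0.30), on FPKM (0.17 and 0.14) and with no filter on low counts (0.42). Zfp467, which favours fat over bone differentiation in mouse, stood at 15.8, 12.1 and 16.3 CPM in model and 24.5, 28.5 and 26.8 CPM in control (-0.85, adjusted p = 0.00324). Zfp423, which commits mouse cells to the preadipocyte state, was at 42.8, 46.1 and 33 CPM in model and 38, 37.7 and 38.5 CPM in control (0.09, adjusted p = 0.702), with overlapping groups. Zfp521, its antagonist, was at 53.8, 48.7 and 52.9 CPM in model and 81.7, 87 and 93.2 CPM in control, without overlap, and missed the threshold (-0.75, adjusted p = 0.0563). It was called lower in 9 other settings, among them DESeq2 (-0.74, adjusted p = 0.0344), limma-voom (-0.75, adjusted p = 0.0486), the fit to these 2 groups alone (-0.77, adjusted p = 0.00138) and library size scaling (-1.02, adjusted p = 0.0143). Of 11 other regulators of fat and mitochondria 5 were higher (45.5%) and 0 lower, against 21.6% and 20.6% of all genes, Cebpa by 1.77 and Ebf1 by 0.73 among them. The rest were not called, with Cebpb at 1.24, Cebpd at 0.26, Ebf2 at 0.02, Pparg at -0.06, Nrf1 at -0.12 and Prdm16 at -0.14.

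Widely expressed promoter factors split, with 3 of 7 higher and 3 lower. Besides Zfp281, Zfp410, which in mouse and human cells activates the gene of the remodeller Chd4, stood at 57.6, 61.7 and 55.2 CPM in model and 37.3, 35.4 and 33.2 CPM in control (log2 fold change 0.72, adjusted p = 0.000817), and Zfp131 was higher by 0.42, a call lost with library size alone (0.14) and on FPKM (0.20 and 0.19). Chd4 itself stood at 247, 297 and 260 CPM in model and 353, 354 and 343 CPM in control (-0.39, adjusted p = 0.0408). Zfp384 stood at 53, 51.8 and 54.4 CPM in model and 79.8, 77.1 and 85.9 CPM in control (-0.61, adjusted p = 0.00133). Zfp143 stood at 11.9, 7.44 and 8.81 CPM in model and 17.2, 18.4 and 19.3 CPM in control (-0.96, adjusted p = 0.0397), and Zfp335 was lower by 0.34 on the log2 scale at 35.6, 42.6 and 38.4 CPM in model and 51.5, 45 and 50.8 CPM in control. The call of Zfp143 was lost without control replicate 1, 2 or 3 or model replicate 2 or 3 (-1.01 to -0.82), and that of Zfp335 without control replicate 1 or 3 or model replicate 1 or 3 (-0.33 to -0.28).

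Of 8 members of corepressor complexes 2 were higher and 2 lower. Zfp644, a partner of the histone methyltransferases Ehmt1 and Ehmt2, stood at 43.5, 53.5 and 53.8 CPM in model and 33.7, 32.2 and 35 CPM in control (log2 fold change 0.58, adjusted p = 0.00458), a call lost with library size alone (0.31) and on FPKM (0.30 and 0.28). Zfp219 stood at 57, 55 and 53.8 CPM in model and 91.7, 80.1 and 96.8 CPM in control (-0.70, adjusted p = 0.0025). Neither pair of groups overlapped. Zfp827 was lower by 0.50 on the log2 scale, at 17.1, 14.6 and 16.5 CPM in model and 22.1, 23.2 and 22.9 CPM in control, a call lost without any of the 3 control libraries or model replicate 2 or 3 (-0.53 to -0.44). Zfp516 is in this list too, and Zfp532, Zfp592, Zfp217 and Zfp462 were not called. Zfp532 was called lower in 8 other settings, library size alone (-0.71, adjusted p = 0.0032) and limma-voom (-0.45, adjusted p = 0.0469) among them, and Zfp462 in 4, library size alone (-0.63, adjusted p = 0.0107) among them.

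Of 10 developmental factors 3 were higher and 2 lower. Besides Zfp281, Zfp703, a corepressor of the NET family, stood at 30.3, 37.5 and 29.3 CPM in model and 18.2, 21 and 19.1 CPM in control (log2 fold change 0.74, adjusted p = 0.00412), and Zfp24, a SCAN factor needed for myelination in mouse, was higher by 0.72. The groups of Zfp703 did not overlap. Besides Zfp57, Zfp536 stood at 0.876, 1.88 and 1.67 CPM in model and 5.61, 3.31 and 3.22 CPM in control (-1.45, adjusted p = 0.0163), a call lost without control replicate 1 (-1.15).

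Genes of the KRAB corepressor and heterochromatin machinery were more often lower than higher in model. Of 25 tested genes of this machinery, none of them a member, 14 were lower (56%) and 1 higher (4%), against 20.6% and 21.6% of all genes, with a median log2 fold change of -0.39. Beside it, 9 of the 10 markers of proliferating cells were lower in the same libraries, and their part in this count was not tested. Dnmt1, the maintenance DNA methyltransferase, stood at 17.2, 13.5 and 24.6 CPM in model and 51.7, 55.3 and 58 CPM in control (-1.57, adjusted p = 0.000679). Setdb1 was lower by 0.87 on the log2 scale, Mphosph8, a subunit of the HUSH silencing complex, by 1.38, Ehmt1 by 0.97 and Dnmt3a by 0.74. Trim28, which KRAB domains recruit, was not called, at 121, 130 and 131 CPM in model and 139, 125 and 146 CPM in control (-0.10, adjusted p = 0.455), with overlapping groups. Hdac1, Hdac2, Chd3 and Cbx3 of the same list were not called either, at 0.01, -0.07, 0.12 and -0.19. Related families did not share one direction, with 8 higher and 9 lower of 32 Zbtb genes, 1 and 5 of 11 Zscan and Zkscan genes, 3 and 0 of 15 Klf genes and 3 and 0 of 4 Sp genes.

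The effect of the decoction in stressed vessels was read from BXD against model. No member was called in either direction by edgeR, against 0.0615% of all genes (0.0546% higher and 0.00683% lower), and limma-voom called 0 as well, against 0.0137% higher and 0.00683% lower. At an unadjusted p under 0.05 there were 20 members higher (8.81%) and 9 lower (3.96%), against 11% and 9.85% of all genes. The median log2 fold change was 0.09 over members and -0.01 over all genes. DESeq2 called 3 members higher, Zfp512, Zfp608 and Zfp697, and 2 lower, Zfp418 and Zfp978, against 4.4% and 3.14% of all genes it tested. The authors' deposited table lists Zfp978 alone, as lower, and the share of all genes it lists was not computed here.

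The 5 members with the smallest p are given as values, none of them past the threshold. Zfp978 (gene 308318, chromosome 1, 69736905 to 69743906) stood at 2.84, 2.9 and 3.17 CPM in BXD and 5.26, 11.7 and 6.15 CPM in model, or -1.37 on the log2 scale (SE 0.31, adjusted p = 0.099 in edgeR). In control it stood at 3.98, 3.12 and 3.22 CPM, so the 3 BXD libraries lay close to the control libraries and the model libraries above both. Its neighbour Zfp418 stood at 12.5, 14 and 10.3 CPM in BXD, 17.4, 34.1 and 19.4 CPM in model and 10.5, 6.62 and 7.01 CPM in control (-0.94 for BXD over model, adjusted p = 0.135).

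Zfp608 stood at 14.1, 14.7 and 14.6 CPM in BXD, 9.99, 9.95 and 10.8 CPM in model and 23.1, 26.8 and 23.8 CPM in control. The 3 groups did not overlap and each was tight, which choosing members by smallest p favours. BXD over model was at 0.50 on the log2 scale (SE 0.12, adjusted p = 0.104 in edgeR). Zfp455, a KRAB gene, stood at 4.59, 4.32 and 5.66 CPM in BXD, 2.72, 3.14 and 2.89 CPM in model and 5.4, 6.36 and 5.68 CPM in control (0.74, adjusted p = 0.125). Zfp512 stood at 16.3, 28.9 and 34.7 CPM in BXD, 17.5, 13.9 and 13.4 CPM in model and 39.8, 38.5 and 40 CPM in control (0.83, adjusted p = 0.131), with BXD replicate 1 among the model libraries.

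BXD replicate 1 stood apart from the other BXD libraries in many members. It had the lowest value of its group in 150 of the 227, against 27 for replicate 2 and 50 for replicate 3. Its median log2 difference from the control mean was -0.45 over the members, against -0.08 and -0.04 for BXD replicates 2 and 3 and -0.31, -0.31 and -0.22 for the model libraries. Without it edgeR called 7 members higher in BXD than in model, against 0.907% of all genes, and 0 lower, against 0.128%. The median over members was then 0.19 for BXD over model, and 0.04 at the lowest when another library was left out. The 7 were Zfp133, Zfp143, Zfp282, Zfp346, Zfp46, Zfp512 and Zfp61, which are named because that fit called them.

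In Zfp46, Zfp143 and Zfp282, BXD replicates 2 and 3 lay close to the control libraries, and replicate 1 lay among or just below the model libraries. Zfp46 stood at 21.1, 43 and 38.3 CPM in BXD, 22.6, 17.8 and 24.4 CPM in model and 37.8, 40.3 and 38.3 CPM in control. Zfp143 stood at 8.1, 18.8 and 21.4 CPM in BXD, beside the model and control values given above. Zfp282 stood at 13.6, 28.1 and 28.6 CPM in BXD, 18.8, 14.2 and 14.4 CPM in model and 28.8, 29.3 and 29.6 CPM in control. In the other 4, BXD replicates 2 and 3 lay between the model and the control libraries. Zfp61 and Zfp346 had BXD replicates 2 and 3 at 38.1 and 38.6 CPM and at 14.8 and 19.5 CPM, still far below their control libraries at 67.1 to 73 and 30.3 to 34.8 CPM.

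**Figure D5:**
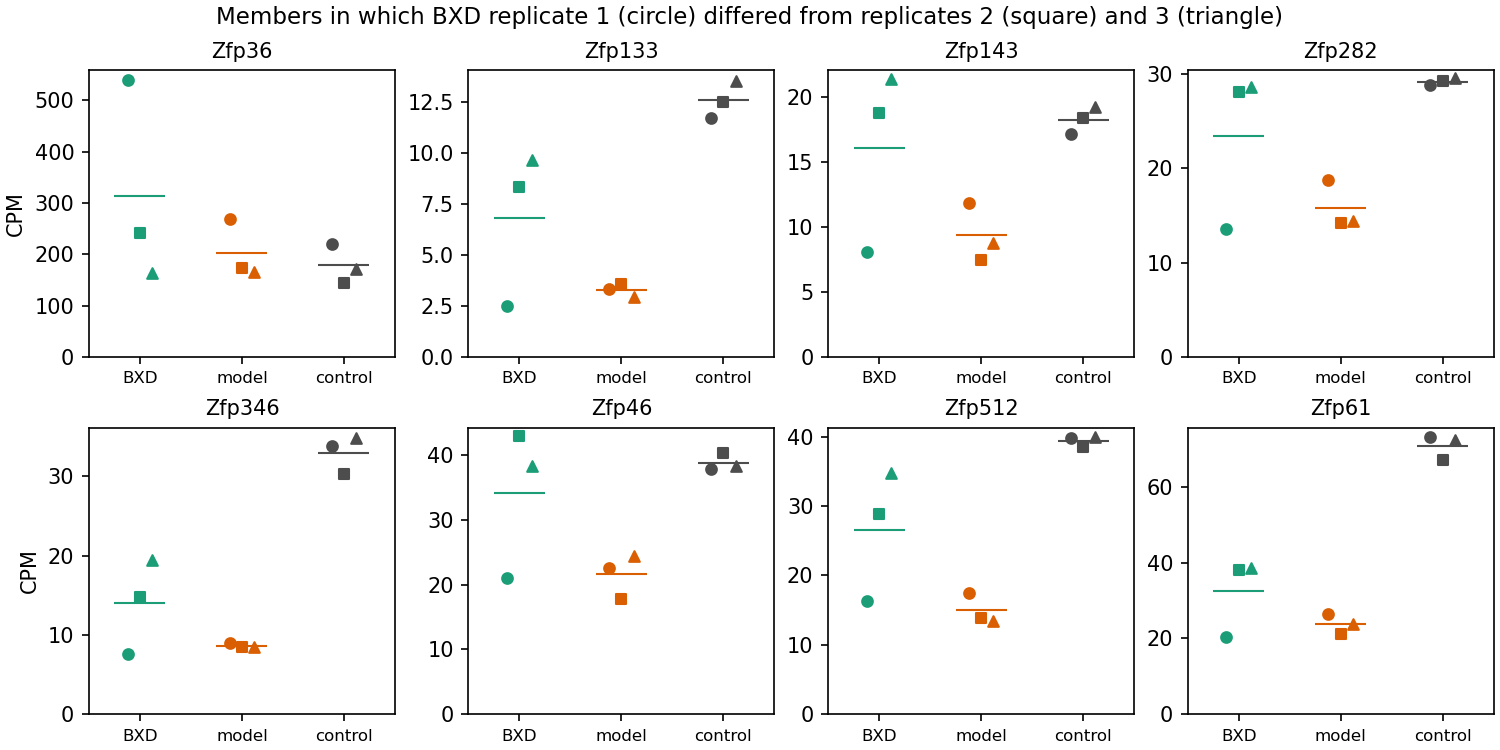
CPM in each library of Zfp36 and of the 7 members called higher in BXD against model once BXD replicate 1 is left out, with groups on the x axis, a marker shape for each replicate and bars at the means. BXD replicate 1 (circle) is the lowest BXD library in the 7 members and the highest in Zfp36, at 539 CPM.

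Zfp36 was highest in that library. It encodes tristetraprolin, which binds AU-rich elements of messenger RNA and brings about their decay, and it was the most abundant member per length, with a mean of 206 TPM, ahead of Zfp207 with 66.1 TPM and Zfp637 with 60.6 TPM. It stood at 539, 241 and 163 CPM in BXD, 268, 173 and 165 CPM in model and 220, 145 and 172 CPM in control. All groups overlapped, and no comparison called it, with 0.18 for model over control (adjusted p = 0.742), 0.64 for BXD over model (adjusted p = 0.394) and 0.81 for BXD over control (adjusted p = 0.153). Among transcripts known from mouse as targets of Zfp36, Cxcl1, a neutrophil chemokine, was at 174, 31.9 and 4.53 CPM, Il6 at 26.4, 3.77 and 1.21 CPM, and Fos at 131, 28.5 and 15 CPM in BXD replicates 1 to 3. In model these 3 transcripts did not exceed 9.46, 1.31 and 54.7 CPM, and in control 3.76, 1.43 and 91.7 CPM. Not every target was highest in BXD replicate 1. Ptgs2, which makes prostaglandins, stood at 7.35, 4 and 3.4 CPM in BXD, 4.47, 2.15 and 3.11 CPM in model and 20.2, 9.09 and 15.9 CPM in control, and Il1b stayed at 1.75 to 4.86 CPM in all 9 libraries. Of 12 such targets tested, 3 were higher (25%) and 1 lower (8.33%) in BXD against control, against 16.1% and 14.3% of all genes. In model against control 1 was higher and 1 lower, 8.33% each, against 21.6% and 20.6% of all genes. Zfp36l1, a relative of Zfp36, was lower in model by 0.62 on the log2 scale (adjusted p = 0.00487).

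Treated, stressed vessels were set against unstressed ones in BXD against control, which shares its control libraries with model against control. In BXD 30 members were called higher and 54 lower, or 13.2% and 23.8%, against 16.1% and 14.3% of all genes, with 30.3% of all genes called in either direction. The median log2 fold change was -0.19 over members and -0.02 over all genes. Scaling by library size alone gave 22 higher and 72 lower with a median of -0.40, against 9.36% and 24.6% of all genes. The count lower was 30, 35 and 29 without control replicates 1, 2 and 3, against 9.03%, 8.7% and 8.68% of all genes. Without BXD replicate 1 the median was -0.09, with 44 higher and 52 lower, against 16.4% and 15.1%. The authors' deposited table lists 30 members higher and 53 lower, of which 30 and 50 were also called by edgeR. For model against control the authors' deposited table lists 45 and 81, of which 37 and 73 were also called by edgeR. The share of all genes listed there was not computed, so these counts show only how far the calls overlap.

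The 5 largest rises in BXD over control were Zfp655, Zfp281, Zfp189, Zfp770 and Zfp777. Zfp655 stood at 107, 104 and 92.6 CPM in BXD, beside 37.9, 36.8 and 38 CPM in control (log2 fold change 1.43, SE 0.12, adjusted p = 0.000482). Zfp281 stood at 21.4, 23.5 and 14.6 CPM in BXD (1.42, adjusted p = 0.00136), and Zfp189, a KRAB gene, at 31.3, 35.1 and 24.7 CPM in BXD and 10.2, 9.74 and 14.9 CPM in control (1.38, adjusted p = 0.00154). The BXD libraries lay above the control libraries for each of the 5 genes, which this comparison itself had picked. For Zfp655, Zfp281, Zfp189 and Zfp777 they overlapped with the model libraries, and for Zfp770 they lay below them, at 24.5, 32.3 and 34 CPM.

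The 5 largest falls were Zfp112, Zfp184, Zfp90, Zfp366 and Zfp28. Zfp90, a KRAB gene, stood at 2.25, 2.75 and 2.19 CPM in BXD, 2.8, 3.23 and 3.04 CPM in model and 6.67, 7.47 and 7.64 CPM in control (log2 fold change of BXD over control -1.60, SE 0.20, adjusted p = 0.00116). Its BXD libraries were the lowest of all 9. Zfp366, known as DC-SCRIPT and a marker of dendritic cells, stood at 1.5, 2.67 and 4.6 CPM in BXD and 9.44, 6.88 and 9.39 CPM in control (-1.54, adjusted p = 0.0207). Zfp112 stood at 0.835, 1.57 and 3.62 CPM in BXD (-1.68, adjusted p = 0.0216), with replicate 1 among the model libraries and replicate 3 between model and control. The calls of Zfp112 (-1.68 to -1.53), Zfp184 (-1.59 to -1.47) and Zfp366 (-1.48 to -1.47) were each lost without some single library, BXD replicate 2 and control replicate 3 among them for all 3. The other such libraries were control replicate 2 for Zfp112, control replicate 1 and BXD replicate 3 for Zfp184, and control replicate 1 for Zfp366.

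By role, BXD against control gave 5 higher and 1 lower of the 10 RNA and ribosome members and 3 higher and 0 lower of the 4 ubiquitin and SUMO members. Beside these counts, 16.1% of all genes were higher and 14.3% lower. Zfp593 was further above control in BXD than in model by its values, at 15.5, 15.1 and 13.6 CPM in BXD against 12.9, 11.5 and 10.9 CPM in model and 7.38, 6.23 and 7.29 CPM in control, and BXD and model did not overlap but were not called apart. Of the KRAB members 8 were higher (11.6%) and 20 lower (29%) in BXD than in control. Of the corepressor and heterochromatin machinery 1 was higher (4%) and 11 lower (44%). Both stand against 16.1% and 14.3% of all genes. Setdb1 stood at 35.3, 46.8 and 48.9 CPM in BXD and 75.1, 69.9 and 75.3 CPM in control (-0.75, adjusted p = 0.00569). Of the 46 members under 5 CPM, 0 were called higher and 12 lower (26.1%) in BXD, against 6.23% and 13.7% of all genes in that band. Of the 84 members at 20 CPM or more, 24 were higher (28.6%) and 15 lower (17.9%), against 23.7% and 11.2% of all genes there, so the tilt with counting depth was present in all genes too. These bands again rest on a mean that holds the values compared, so the tilt is partly built in. In BXD the adipocyte markers summed to 21586 to 28893 TPM, the contractile markers to 9472 to 13182 TPM and the markers of proliferating cells to 39.1 to 53.4 TPM. Their part in these counts was not tested.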

How the data were processed

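Poly(A) RNA from 9 rat vessel samples was sequenced on a HiSeq2500, per the labels' protocols. No kit that keeps strand is named there, so reads of a gene and its antisense partner cannot be separated. HISAT2 2.2.4, Bowtie2 2.2.5 and the Rnor_6.0 build are named in the submitters' processing notes, and the counting tool was not given in the sources used here. Per the file headers, the authors' gene table gives estimated counts (88.8% whole within 1e-09), FPKM and TPM. The authors also deposited a log2 ratio for each pair of groups, along with its p-value and q-value. A further 45 columns of per-sample values were not used here, and an omeprazole group that the protocol names was not analysed here.

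Libraries were grouped by their titles. Total counts ran from 12313813 (model replicate 1) to 13455705 (BXD replicate 3), and 3 counts equal 0.195 to 0.269 CPM, which covers counting error only. No library repeated another (chi-square per degree of freedom 14 to 52.5 between replicates). Estimated counts were rounded, filtered with filterByExpr to 14643 genes, scaled by TMM (factors 0.8732 to 1.154) and fitted with edgeR 4.0.16 in R 4.3.3 to all 9 libraries, group as the only term, 6 residual degrees of freedom, robust quasi-likelihood, Benjamini-Hochberg adjustment over all genes, and a biological coefficient of variation of 23.3%. The fit was checked on simulated data. TPM was used for levels per length only. Alternatives were RLE, upper quartile and library size scaling, DESeq2 1.42.0, limma-voom (limma 3.58.1), other filters, limma on log2(FPKM + 0.1) and log2(FPKM + 1), 2 groups only, the replicate number as a block, each library left out, and a member minimum of 900 counts.

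The members and the lists of roles and markers were chosen with earlier results of these data known. Named genes were the 12 largest called rises and falls of model against control and the 5 of BXD against control (mean of at least 1 CPM), the 5 smallest p of BXD against model, all members of the role lists, the 3 highest by TPM and up to 4 called genes of each other list; the members called without BXD replicate 1, and those of neighbouring runs, were named after their values were seen. Domain classes come from the domains in the authors' table, since protein sequences were not used here. Promoters are RefSeq's on GRCr8, matched by gene ID.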

Additional observations from a re-analysis of the deposited data

How the results depend on the processing

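In model against control, the counts of members called higher and lower kept within 1.5 times of 37 and 75 in the other fits, with 2 kinds of exception. With library size alone 21 were higher, against 11.1% of all genes. On FPKM 22 were higher at either pseudocount, against 11.1% (0.1) and 11% (1) of all genes. The median log2 fold change of members stayed negative, at -0.57 (library size alone), -0.43 (upper quartile), -0.54 and -0.41 (FPKM, pseudocounts 0.1 and 1) and -0.09 for members with 900 or more counts. Leaving out 1 library gave 26 to 46 higher, 54 to 87 lower and medians of -0.33 to -0.29. Over all genes, 14.4 to 23.3% were higher and 14.1 to 23% lower in these fits. Of the 112 calls 74 held in all 9 of them, and 110 kept their sign in all 20 settings, Zfp18 and Zfp326 being the exceptions. In BXD against model, DESeq2 gave 3 higher and 2 lower in place of 0 and 0, against 4.4% and 3.14% of all genes. Leaving out 1 library there gave 0 to 7 higher, 0 lower and medians of 0.04 to 0.19. Over all genes, 0 to 0.907% were higher and 0.00669 to 0.128% lower. In BXD against control the median was -0.40 (library size alone), -0.45 (FPKM, pseudocount 0.1) and -0.01 for members with 900 or more counts. Leaving out 1 library there gave 21 to 44 higher, 29 to 52 lower and medians of -0.28 to -0.09. Over all genes, 9.71 to 17.4% were higher and 8.68 to 15.1% lower, and 44 of the 84 member calls held in all 9 of these fits. Why the values moved was not tested.

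Deviations of same-numbered libraries from their group means correlated at 0.037, 0.04 and 0.102 in model and control. They correlated at -0.088, -0.426 and -0.204 in BXD and model, and 0.065, -0.04 and -0.244 in BXD and control. Different-numbered libraries were not correlated for comparison, so these values do not settle whether replicate numbers pair the libraries. With the replicate number as a block, 33 members were higher and 67 lower in model against control (median -0.29), against 18.9% and 17.7% of all genes. In BXD against model there were 0 and 0 (0.08), against 0% and 0.00683%. In BXD against control there were 28 and 50 (-0.21), against 13.2% and 11.8%. Among named members the block ended the calls of Zfp143 (-0.94, adjusted p = 0.071 in edgeR), Zfp335 (-0.34, adjusted p = 0.0643) and Zfp827 (-0.50, adjusted p = 0.0531) in model against control.

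Signs of named members turned mainly for small values that were not called. Under library size, upper quartile, FPKM + 0.1 and FPKM + 1, in that order, the log2 fold change of model over control was -0.23, -0.10, -0.24 and -0.21 for Zfp217, -0.19, -0.04, -0.19 and -0.17 for Zfp423, -0.14, -0.01, -0.46 and -0.41 for Zfp451, -0.15, -0.01, -0.16 and -0.14 for Zfp592, -0.24, -0.10, -0.23 and -0.23 for Zfp637, and -0.25, -0.11, -0.25 and -0.23 for Zfp638. With library size alone and the FPKM fits it was -0.06, -0.13 and -0.13 for Zfp207, -0.09, -0.10 and -0.10 for Zfp36, -0.11, -0.12 and -0.09 for Zfp407, and -0.04 in all 3 for Zfp706. Zfp326, called higher, was at -0.14 in both FPKM fits. Leaving out 1 library gave -0.05 to 0.11 for Zfp217, -0.08 to 0.34 for Zfp36, -0.0034 to 0.23 for Zfp423, -0.24 to 0.10 for Zfp503, -0.04 to 0.08 for Zfp637 and -0.04 to 0.06 for Zfp638. Of the other members not called lower in model, Zfp704 was called under library size (-0.71), upper quartile (-0.58) and FPKM (-0.68 and -0.46), and Zfp296 with FPKM + 1 (-0.40). Depth limits the 46 members under 5 CPM most.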
